A study of Daphnia magna with 4 samples.

Results

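A set of 128 transcripts was at least 2 times as high in whole Daphnia magna kept with the herbicide atrazine as in unexposed animals. Daphnia magna is a small freshwater crustacean used in toxicity testing. The members were chosen by one rule on the deposited CPM (read counts scaled to a common library size). The lower of the 2 atrazine libraries had to reach at least 4 CPM and at least 2 times the higher of the 2 untreated libraries. The members were 0.881% of the 14528 features in the deposited CPM table. Of these features, 11173 reached 4 CPM in both atrazine libraries, and 1.15% of the 11173 met the rule. In 25.8% of the 11173, members included, both atrazine libraries were above both untreated ones by any amount. The same values that chose the members give the size of their rise, so rises are described here and carry no test. With 1 library left out, the rule is less strict by construction, and more features met it. Their number was 181 without atrazine replicate 2, 292 without atrazine replicate 4, 418 without untreated replicate 1 and 165 without untreated replicate 5. Untreated replicate 1 was thus the library that kept most features out.

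Atrazine replicates 2 and 4 came from animals aged 7 days exposed for 96 hours to 40 µM atrazine in the carrier solvent DMSO. Untreated replicates 1 and 5 came from unexposed animals of the same age. Each library came from 3 whole animals. The design text speaks of 5 samples without saying how they relate to the 4 libraries analysed here, so what the replicate numbers stand for is not known. One label of atrazine replicate 4 misspells the agent, and its title places it with atrazine. The labels do not say whether the unexposed animals received DMSO, so effects of atrazine and of its carrier cannot be told apart. Nor can a change of transcript amount per cell be told apart from a change in the number of cells that hold the transcript, since whole animals were sequenced.

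Atrazine is a triazine herbicide that blocks photosystem II in plants. Animals have no photosystem, and they handle such foreign compounds with general detoxification enzymes. In arthropods these include cytochrome P450 enzymes, which oxidize the compound, glutathione S-transferases and UDP-glucuronosyltransferases, which attach a soluble group to it, and ABC transporters, which export it. Whether any of the 128 transcripts encodes such an enzyme cannot be read from these data. The files name features only as rna and a number, and 0 of the 26646 IDs matched the RefSeq gene table of Daphnia magna. The members are therefore described by ID, with no gene name, role, sequence or position, and no gene lists could be applied.

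The libraries held 16044118 and 16468195 reads in atrazine replicates 2 and 4, and 16538025 and 17675476 reads in untreated replicates 1 and 5. Over the 11173 features at 4 CPM or more, the 4 ratios of an atrazine to an untreated library had medians between 0.974 and 1.02. These lie close to 1. The level of marker genes could not be checked, since the features are not named.

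Most members were higher by 2 to 4 times. The ratio of the mean of the atrazine libraries to the mean of the untreated libraries had a median of 3.38, with quartiles of 2.92 and 4.12, where the median over all 11173 features was 0.994. It ran between 2.16 and 14.9. It was under 4 for 88 members and at least 4 for 40, at least 5 for 16, at least 8 for 10 and at least 10 for 6. The rule itself used a stricter measure, the lower atrazine over the higher untreated library. By that measure, called the closest ratio here, the median was 2.35, 75 members were under 2.5 and 12 were at 4 or more. A member with a large rise was thus the exception, and the bulk lay near the threshold.

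**Figure D1:**
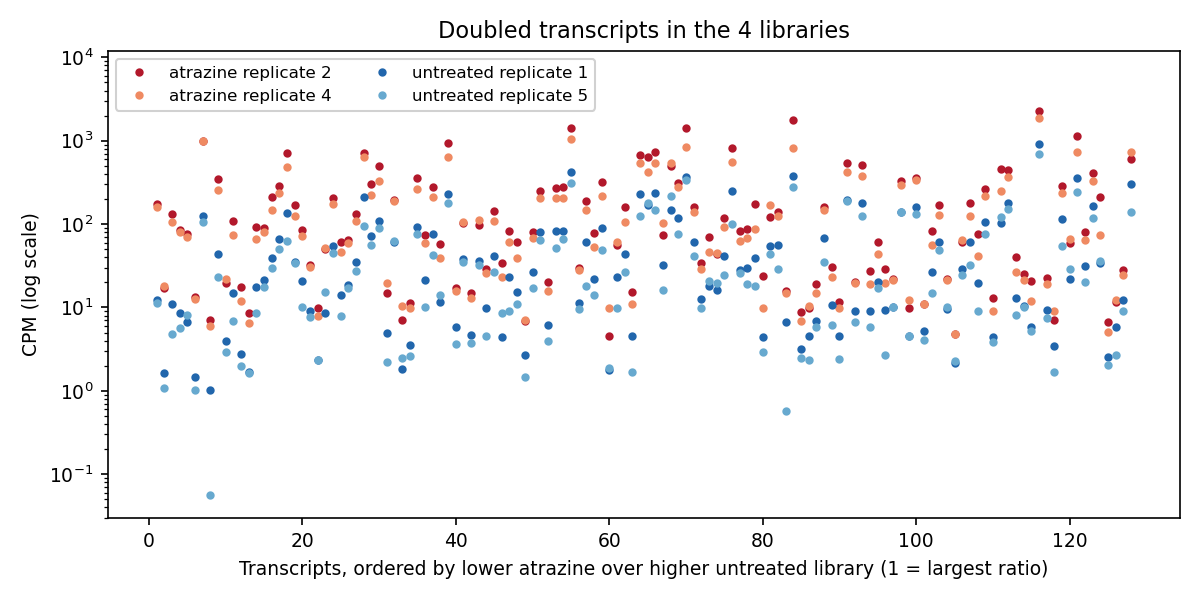
CPM of each of the 128 transcripts (vertical axis, log scale) in the 2 atrazine libraries (red and orange) and the 2 untreated libraries (dark and light blue), ordered along the horizontal axis by the closest ratio. Every red and orange point lies above both blue points of its transcript, as the rule requires, and only 12 transcripts have a closest ratio of 4 or more.

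The 8 members with the highest closest ratio had mean untreated levels between 0.543 and 116 CPM. The first, rna18800, had 175 and 159.6 CPM in atrazine replicates 2 and 4, against 12.2 and 11.4 CPM in untreated replicates 1 and 5. Both pairs of libraries lay close together, at 167 ± 10.6 CPM with atrazine and 11.8 ± 0.553 CPM without (SD, n = 2 each), a ratio of 14.2. Next came rna9191, with 16.9 and 18.2 CPM with atrazine and 1.63 and 1.08 CPM without. Its ratio of 12.9 rests on 271 and 299 reads with atrazine and 27 and 19 reads without. The counting interval of its closest ratio of 10.3 is therefore wide (exact 95% interval 6.95 to 16). That of rna18800, 13.1, has an interval of 11.4 to 15.2. These intervals cover counting error only, and not the spread between the libraries of a group. The reads carry no molecular identifiers, so copies of 1 molecule may count as separate reads.

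The transcript rna13152 had the highest ratio of means, 14.9, but its untreated libraries differed by 2.31 times. It had 131 and 107 CPM with atrazine, and 11.1 and 4.82 CPM in untreated replicates 1 and 5. In rna22075 the values were 84 and 80.1 CPM with atrazine and 8.48 and 5.67 CPM without. For rna9951 they were 75.7 and 70.7 CPM with atrazine and 6.78 and 8.05 CPM without. In both, the atrazine libraries differed by at most 1.07 times. A lower level was seen in rna10527, with 13.4 and 12.8 CPM with atrazine against 1.45 and 1.02 CPM without.

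Among these 8, rna2765 took by far the most reads. It had 987 and 999.7 CPM in the atrazine libraries, against 126 and 106 CPM in the untreated ones. Its atrazine libraries differed by a factor of 1.01 and its untreated libraries by 1.19, and its ratio of means was 8.56. The eighth, rna1559, was the opposite case. It had 113 and 99 reads with atrazine, but 17 reads in untreated replicate 1 and 1 read in untreated replicate 5, so the size of its rise depends on which untreated library it is set against. It was the only member with fewer than 10 reads in an untreated library, and 0 members had fewer than 10 in both.

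Members near the threshold differed little from features just outside it. The lowest closest ratios among members were 2.003 for rna8478, 2.004 for rna22610 and 2.01 for rna22951. Just outside, rna10362 had 1.999, rna13920 had 1.988 and rna2664 had 1.986. At the level threshold, the lower atrazine value was 4.49 CPM in rna3815, the lowest among members, against 3.95 CPM in rna18785, which passed the ratio but not the level. In all, 30 features of the CPM table passed the ratio and stayed under 4 CPM. Counting error alone could carry part of the members under the threshold. The lower end of the 95% counting interval of the closest ratio was at least 2 for 81 of the 128 members. It was at least 1.5 for 125. The rule chose the members by this same ratio, so these bounds do not test it.

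In unexposed animals the members were not silent transcripts. Their median level was 21.8 and 17.1 CPM in untreated replicates 1 and 5, below the medians of 26.2 and 25.6 CPM over the 11173 features at 4 CPM or more. In atrazine replicates 2 and 4 the median of the members was 82.1 and 67.3 CPM, above the medians of 25.7 and 26 CPM of the same features. The rule requires members to be higher with atrazine, so this shift between the groups is built in. CPM values are not divided by transcript length, so they order transcripts by reads and not by molecules. The middle 50% of the members spanned 8.07 to 73.6 CPM in untreated replicate 1 and 5.57 to 50.6 CPM in untreated replicate 5.

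Members were found at every untreated level. Of 150 features with a mean untreated level under 4 CPM, 21 were members. This share of 14% is set in part by the rule, since such a feature has to exceed its untreated level in order to reach 4 CPM with atrazine at all. From 4 to 16 CPM, 37 of 3519 features were members, from 16 to 64 CPM 38 of 5093, from 64 to 256 CPM 27 of 1893, and above that 5 of 518. The median ratio of means differed little over these 5 classes, at 4.04, 3.51, 3.37, 3.18 and 3.21. The untreated level enters both the class and the ratio, so part of this order follows from the way it was computed. The highest ratio in each class was 12.9, 14.9, 8.99, 8.56 and 4, so the widest spread of rises was found under 16 CPM.

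**Figure D2:**
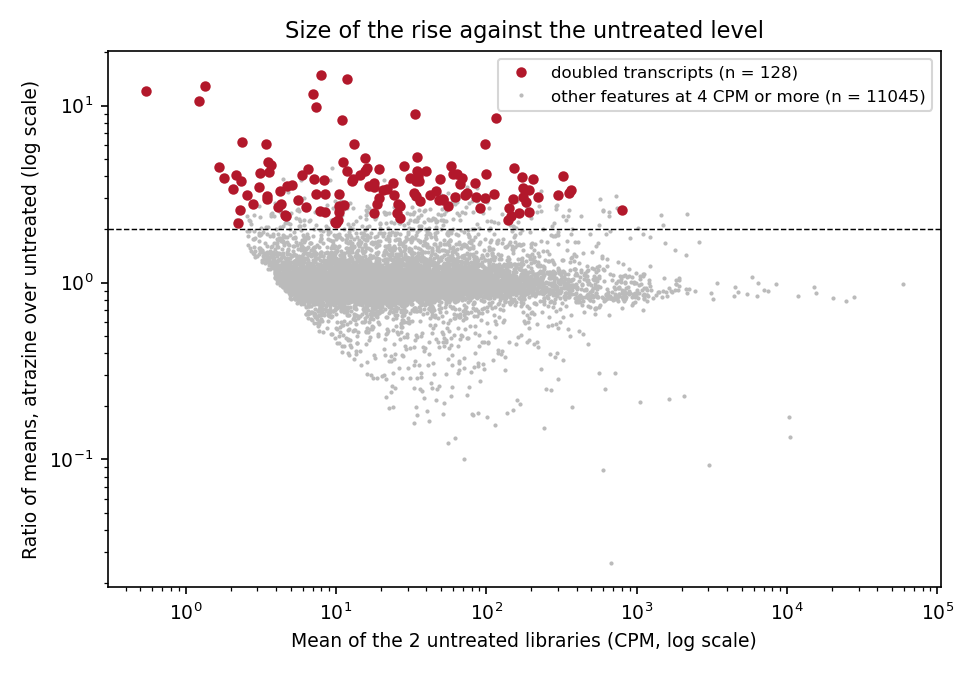
Ratio of the atrazine to the untreated mean (vertical axis, log scale) against the untreated mean in CPM (horizontal axis, log scale), for the 128 doubled transcripts (red) and the 11045 other features that reached 4 CPM in both atrazine libraries (grey). The dashed line marks a ratio of 2. Grey points above it are features whose means differ by more than 2 times but whose closest libraries do not, and all ratios above 5 at a level under 16 CPM belong to red points.

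The 5 members with the most reads in exposed animals had ratios of means of 2.58 to 8.56. The transcript rna5859 had 2249.9 and 1856 CPM in atrazine replicates 2 and 4, against 905 and 687 CPM in untreated replicates 1 and 5. By reads it ranked 33rd and 38th of all features in the atrazine libraries and 108th and 158th in the untreated ones. Its ratio of 2.58 was among the smaller ones, yet it added 1257 CPM, more than any other member. The second, rna6574, had 1776 and 822 CPM with atrazine and 373 and 276 CPM without. Its atrazine libraries differed by 2.16 times.

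The transcript rna8329 had 1412 and 1040.4 CPM with atrazine and 424 and 308 CPM without. In rna11961 the values were 1429 and 848 CPM with atrazine, and 368 and 340.3 CPM without. Its untreated libraries differed by only 1.08 times and its atrazine libraries by 1.69 times. Of these 5 transcripts, rna2765 alone had atrazine libraries within 1.2 times of each other, and in the other 4 replicate 2 was the higher.

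Together the members took 2.86% and 2.19% of the reads in atrazine replicates 2 and 4, and 0.848% and 0.622% in untreated replicates 1 and 5. The means were 2.52% ± 0.475 with atrazine and 0.735% ± 0.16 without (SD, n = 2 each). The ranges of the groups did not overlap, which follows from the rule. Few members carried most of these reads: the 14 with the most reads were enough to hold 50% of the summed atrazine CPM, and the top 10 held 41.5%. Among the 500 features with the most reads in a library, 29 and 22 were members in atrazine replicates 2 and 4, against 6 and 4 in untreated replicates 1 and 5.

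All 128 members passed the filter on low counts, and edgeR's quasi-likelihood test called 90 of them higher (adjusted p below 0.05 over 15196 tested features). Over the whole table it called 1.22% of features higher and 0.869% lower. The rule used the same contrast, so nothing is read from this difference. The 90 were 70.3% of the members and 48.4% of the 186 features called higher. The 38 members that were not called had libraries further apart. Their larger difference within a group had a median of 2.09 times, against 1.37 times in the 90 that were called. Of the 8 transcripts with the highest closest ratio, only rna1559 was not called, and of the 5 with the most reads only rna6574. With no filter on low counts, 12 of the 128 were called, and with library-size scaling 105. The number of members called was lower with either atrazine library left out, and not lower with either untreated library left out. In such fits the lone library borrows the spread of the other pair. What causes these shifts was not tested.

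The libraries of a group agreed less well for the members than for other features. In the atrazine pair the higher library was a median of 1.27 times the lower over the members, against 1.08 times over the 11045 other features at 4 CPM or more. In the untreated pair it was 1.38 times over the members and 1.13 times over the others. Differences of at least 1.5 times were seen in the atrazine pair for 15 members (11.7%) and 1.65% of the others. In the untreated pair they were seen for 55 members (43%) and 7.35% of the others. The 136 features at least 2 times lower with atrazine by the mirrored rule agreed no better than the members. Their medians were 1.35 times in the atrazine pair and 1.49 times in the untreated pair. Differences of at least 1.5 times were found in 33.8% and 50% of them. The rule takes the libraries nearest to the other group, so at a given mean it passes features with closer replicates more easily.

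The members' differences within groups ran mostly in 1 direction. Atrazine replicate 2 was above atrazine replicate 4 in 105 of the 128 members (82%), against 41.6% of the other features. Untreated replicate 1 was above untreated replicate 5 in 112 members (87.5%), against 57% of the others. Both held in 96 members, neither in 7. The rule treats the libraries of a group alike, so it did not set which one was higher. The median ratio was 1.23 for atrazine replicate 2 over 4 and 1.36 for untreated replicate 1 over 5. The sizes of the 2 differences were hardly related across members, with a Pearson's r of 0.0571 and a Spearman's rho of 0.117 over 128 transcripts from the same 4 libraries.

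The lean was graded along the closest ratio. Atrazine replicate 2 was the higher in 42.2% of the 1882 features with a closest ratio of 1 to 1.2, in 57.9% of 575 at 1.2 to 1.5 and in 72.9% of 303 at 1.5 to 2. Among members it was the higher in 81.4% of 97 at 2 to 3 and in 83.9% of 31 at 3 or more. For untreated replicate 1 over 5 the same shares were 51.5%, 64.2%, 76.6%, 85.6% and 93.5%. For the 136 features that were at least 2 times lower with atrazine by the mirrored rule, atrazine replicate 2 was the higher in 88.2% and untreated replicate 1 in 10.3%. The untreated lean thus took opposite directions in higher and in lower transcripts, and the atrazine lean took the same direction in both. Whether the pools of animals, their handling or the libraries differ in a way that bears on these shares was not tested.

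**Figure D3:**
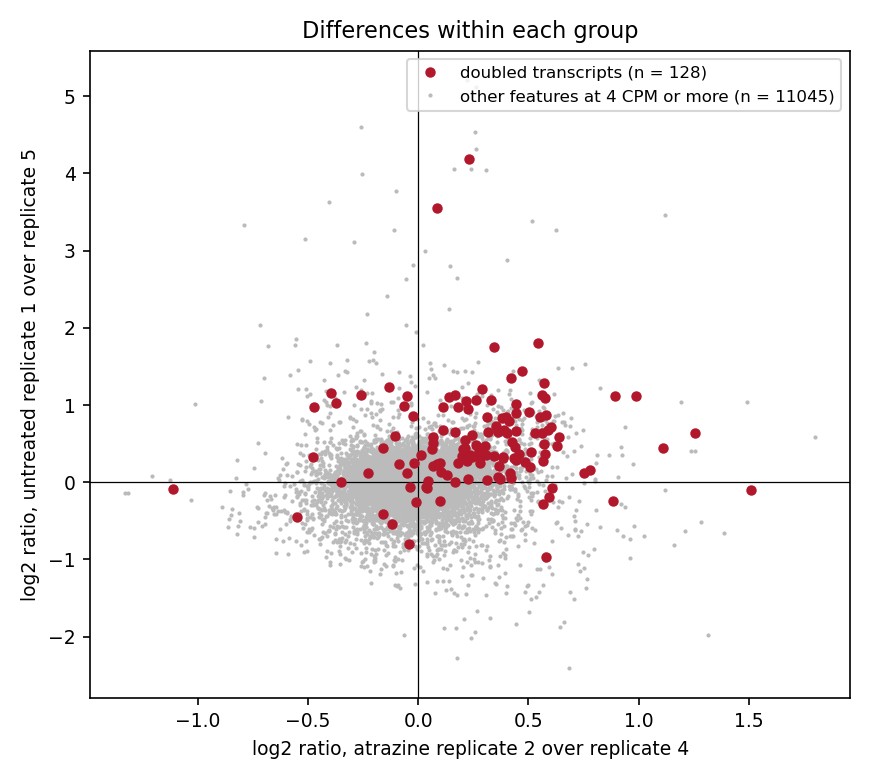
Each point is a feature, with the log2 ratio of atrazine replicate 2 over replicate 4 on the horizontal axis and of untreated replicate 1 over replicate 5 on the vertical axis. Red points are the 128 doubled transcripts, of which 96 lie to the upper right of the origin; grey points are the 11045 other features at 4 CPM or more, which gather round the origin.

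The size of the rise depended on the libraries set against each other. The median ratio over the members was 4.67 for atrazine replicate 2 over untreated replicate 5 and 3.72 for atrazine replicate 4 over untreated replicate 5. It was 3.14 for atrazine replicate 2 over untreated replicate 1 and 2.47 for atrazine replicate 4 over untreated replicate 1. The choice of untreated library thus mattered more than the choice of atrazine library.

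The members with the largest differences within a group show how far this goes. The transcript rna8804 had 209 and 73.2 CPM in atrazine replicates 2 and 4, against 33.8 and 36.2 CPM in the untreated libraries, so its atrazine libraries differed by 2.85 times. In rna6419 they differed by 2.39 times, with 23.8 and 9.97 CPM, against 4.48 and 2.89 CPM without. In rna3815 they differed by 2.17 times in the other direction, with 4.49 and 9.73 CPM, against 1.76 and 1.87 CPM without.

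In the untreated pair the largest differences were 18.2 times in rna1559, 11.8 times in rna5452 and 3.5 times in rna4635. The transcript rna5452 had 15.6 and 14.7 CPM with atrazine, against 6.66 CPM in untreated replicate 1 and 0.567 CPM in untreated replicate 5. In rna4635 the values were 28.8 and 19.8 CPM with atrazine, against 9.32 and 2.66 CPM in untreated replicates 1 and 5. In 12 members, these 3 among them, a difference within a group was larger than the gap between the groups. At the other end, 18 members had both pairs within 1.2 times. Their median ratio of means was 2.81, and their range of 2.16 to 14.2 was nearly that of all members. The transcripts rna18800, rna9951 and rna2765 belonged to these 18.

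The members were spread over the whole range of feature numbers, which run from 0 to 26645. They lay between 195 and 26532, and their share of the deposited features was 0.882% for numbers up to 4999, 1.02% for 5000 to 9999, 0.83% for 10000 to 14999, 0.717% for 15000 to 19999 and 0.931% beyond. Within 10 numbers of another member lay 32 of the 128 (25%). For comparison, 11.1% of the other features at 4 CPM or more lay within 10 numbers of a member, and 44.9% of the 136 transcripts at least 2 times lower lay within 10 of another such transcript. The member share changed with the number of members, which lie closer together the more of them there are. Sets chosen with a library left out were larger, so the libraries and the set size cannot be told apart. With members chosen anew it was 27.6% (50 of 181) without atrazine replicate 2 and 43.2% (126 of 292) without atrazine replicate 4. It was 53.1% (222 of 418) without untreated replicate 1 and 26.1% (43 of 165) without untreated replicate 5. With all 4 libraries it was 49.9% (215 of 431) for a closest ratio of at least 1.5 and 6.45% (2 of 31) for at least 3. The annotation behind the numbering is not given in the labels. Neighbouring numbers may be neighbouring genes or transcripts of 1 gene, and reads from overlapping or near-identical features may be shared between them.

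Long runs were not found. The 32 members fell into 15 groups, 13 of 2 members and 2 of 3, and 0 runs of 3 or more had steps of at most 2 numbers. Only 4 pairs had consecutive numbers. In the first, rna3065 had 11.4 and 9.91 CPM with atrazine and 3.51 and 2.61 CPM without. Its neighbour rna3066 had 90.2 and 79.5 CPM with atrazine and 21.1 and 17.7 CPM without. The ratios of means were 3.49 and 4.37, and the features on either side had 1.22 (rna3064) and 1.36 (rna3067). A feature 3 numbers before the pair, rna3062, had a ratio of 3.81 but a closest ratio of 1.89.

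The pair rna4167 and rna4168 had ratios of 4.37 and 3.75. The first had 34.3 and 22.9 CPM with atrazine and 4.42 and 8.67 CPM without, and the second 57.7 and 38.9 CPM with atrazine and 11.6 and 14.1 CPM without. In both, atrazine replicate 2 was about 1.5 times replicate 4, and untreated replicate 5 was above replicate 1, the rarer order among members. The feature before them, rna4166, took far more reads, with 3538 and 2747 CPM with atrazine and 1481 and 1495 CPM without. Its ratio of means was 2.11, and it missed the rule with a closest ratio of 1.84. Further before, rna4164 and rna4165 had ratios of 0.372 and 0.433, with under 4 CPM in each library. The feature after the pair, rna4169, had a ratio of 0.655.

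The pair rna11327 and rna11328 included the member with the highest ratio of means among these 8. The first had 492 and 332 CPM with atrazine and 109.6 and 90.9 CPM without, a ratio of 4.11. The second had 108 and 73.2 CPM with atrazine and 15 and 6.86 CPM without, a ratio of 8.31. Both features numbered just before them were also higher with atrazine, with ratios of 1.91 (rna11325) and 1.51 (rna11326). The one before these, rna11324, was lower, with a ratio of 0.511. The feature after the pair, rna11329, had 3 to 5 reads per library. In the last pair, rna9470 had 8.8 and 6.93 CPM with atrazine and 3.15 and 2.49 CPM without. Its partner rna9471 had 738 and 543 CPM with atrazine and 234 and 148 CPM without. Their ratios were 2.79 and 3.35, and another member, rna9476, lay 5 numbers further on with a ratio of 2.38.

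**Figure D4:**
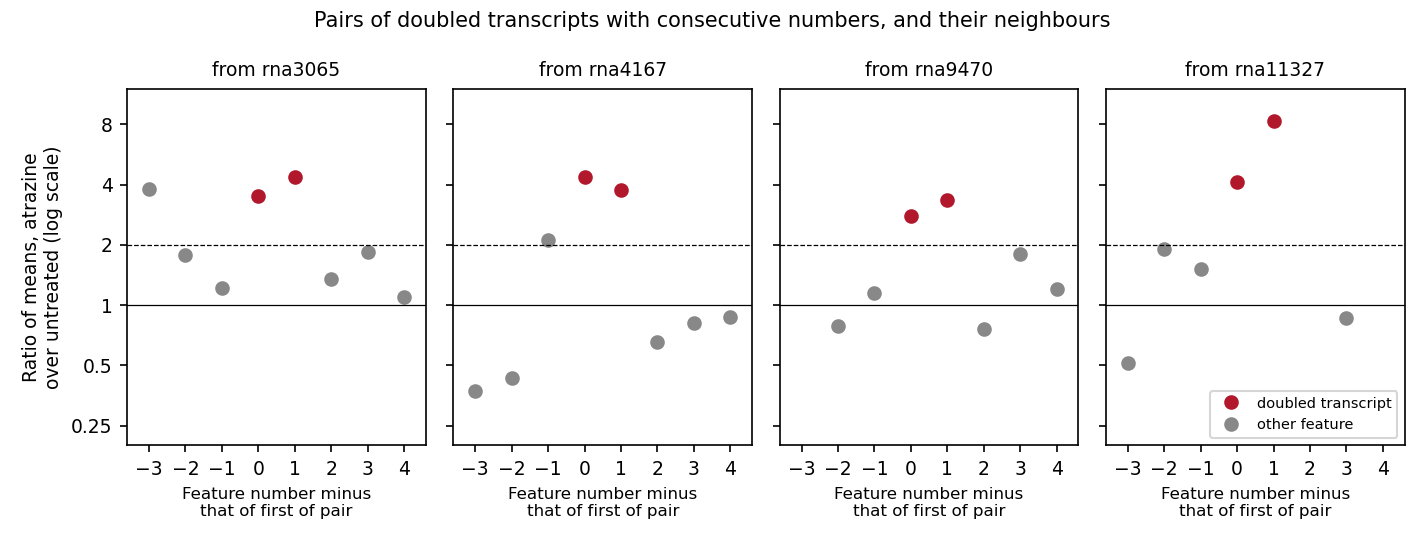
Ratio of the atrazine to the untreated mean (vertical axis, log scale) for the 4 pairs of doubled transcripts with consecutive numbers (red) and the features numbered up to 3 before and after them (grey; features outside the deposited CPM table are left out). The solid line marks a ratio of 1 and the dashed line a ratio of 2; the feature just before the pair has a ratio of 2.11 in the panel for rna4167 and 1.51 in that for rna11327.

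The transcripts of a nearby pair could differ widely. The member with the highest closest ratio, rna18800, lies 3 numbers after another member, rna18797, and both were looked at together after their values were seen. The ratio of rna18800 was 14.2 and that of rna18797 was 3.12, with 1146 and 735 CPM with atrazine and 362 and 242 CPM without. The features between them, rna18798 and rna18799, had ratios of 1.05 and 0.896, and the feature before rna18797, rna18796, had 2.43. Likewise, rna15068 and rna15070 had ratios of 2.47 and 4.26. Members also lay near transcripts that were lower. Of the 128, 16 (12.5%) lay within 10 numbers of a transcript at least 2 times lower, close to the 10% of other features at 4 CPM or more. For example, rna14622, with a ratio of 0.132, lies 2 numbers after the member rna14620, which had a ratio of 3.14.

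Features next to a member were more often higher with atrazine than distant ones, although none of them met the rule. Of 174 other features numbered exactly 1 away from a member and with a mean of at least 1 CPM, 54 (31%) had a log2 ratio of means above 0.5. Of 12541 more than 10 numbers away, 7.65% did. The share declined to 18.7% at 2 numbers, 13.8% at 3 and 7.95% at 4, and between 5 and 10 numbers it ran from 6.15% to 8.7%. The share of features with a log2 ratio below -0.5 was 5.75% at 1 number, 12.3% at 2, 10.1% at 3 and 7.09% beyond 10. Between 4 and 10 numbers it ran from 0.725% to 10%. The share above 0.5 at 1 number was between 26.4% and 31% with any 1 library left out, against 7.93% to 9.3% beyond 10 numbers. Here the members, and so their neighbours, were kept as chosen from all 4 libraries. The library left out thus still took part in that choice.

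Over the 345 features within 2 numbers, the median log2 ratio was 0.08, with quartiles of -0.16 and 0.48, against -0.02 over 13687 other features. Of the 345, 24.9% had a log2 ratio above 0.5, against 7.71% of the 13687. A log2 ratio below -0.5 was found in 8.99% of the 345 and 7.1% of the 13687. Most neighbours were thus near a ratio of 1, and the difference lay mostly in the upper part of their spread. The median was 0.05 without atrazine replicate 4, with the members kept as chosen from all 4 libraries. A likeness between consecutive features was also found away from members. Over 8638 pairs of consecutive features that both lay more than 10 numbers from a member, the Pearson's r of the log2 ratios was 0.227. Among features this far from members it was 0.162 at a distance of 2 numbers and 0.0206 at 100. These are correlations across features from the same 4 libraries, which are not independent replicates. Whether shared reads between overlapping features contribute was not tested.

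**Figure D5:**
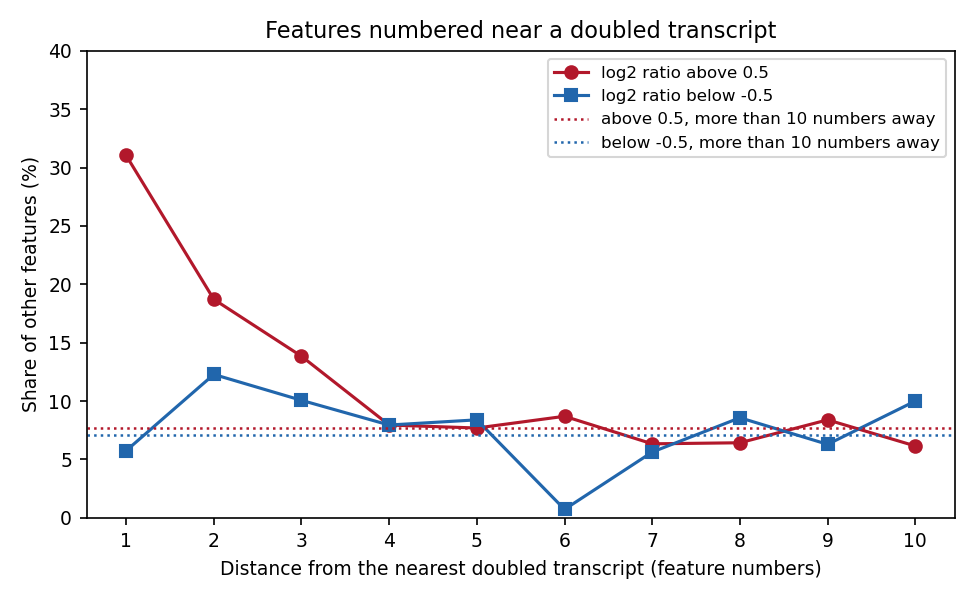
Share of other features with a mean of at least 1 CPM (vertical axis, percent) whose log2 ratio of means was above 0.5 (red) or below -0.5 (blue), by distance in feature numbers from the nearest doubled transcript (horizontal axis). Dotted lines give the shares for features more than 10 numbers away, 7.65% and 7.09%; the red share is 31% at a distance of 1 and near its dotted line from 4 numbers on.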

How the data were processed

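Read counts of 4 RNA libraries of whole Daphnia magna, 2 per group, were analysed. Per the submitters' processing notes, the tools were GSNAP, Trimmomatic, FastQC, featureCounts, Subread and edgeR, listed with no role. No version, build, annotation or strand setting is given in the sources used. The labels' protocols name the TruSeq RNA kit, version 2. The authors deposited raw read counts for 26646 features and CPM for 14528 of them. Each CPM is the count divided by the library's reads over those features, with no composition factor. The deposited CPM gave whole reads, within 1e-06, for 100% of values, and 99.9% of all reads lie in these features. All columns matched a library title.

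Members, ratios and shares were computed from the deposited CPM in Python 3.11.15 (pandas 2.3.3). Features higher or lower with atrazine were called on the deposited raw counts with edgeR 4.0.16 in R 4.3.3 (filterByExpr with a minimum count of 10, TMM, quasi-likelihood F test, two-sided, Benjamini-Hochberg over 15196 features, threshold 0.05). The procedure was tested on simulated data. DESeq2 1.42.0 and limma 3.58.1 were alternatives. With 2 libraries per group, and no label on separate cultures, p-values measure only the spread between these libraries. Counting intervals are exact (Clopper-Pearson) at 95%. No test beyond these calls was made on the members' rises.

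The members and lists were chosen with earlier results of these data known. IDs named are the 8 with the highest closest ratio, the 5 with the most atrazine reads, 3 on each side of the ratio threshold, consecutive pairs, and the 3 largest differences within each group. The neighbours and further groups were named after their values were seen. Gene lists were left out, since the IDs carry no names. Alternatives changed the scaling, both thresholds, the test, the filter, the distance and the libraries used.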

Additional observations from a re-analysis of the deposited data

How the results depend on the processing

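The rule gave 128 members and 128 to 132 under TMM, RLE and library-size scaling, 112 to 158 with other level minimums or none, and 128 in the raw count table with all features (added after seeing the data). It gave 431 at a ratio of at least 1.5, 31 at a ratio of at least 3, and 372 with the ratio of group means. With each library left out in turn it gave 165 to 418. The median ratio of the members was 3.38, and 2.35 as the lower atrazine over the higher untreated library. With a library left out and the same 128 members kept, it was 2.86 to 4.3. TMM scaling and log2(CPM + 1) kept it within the spread between libraries. The atrazine share of reads, 2.52%, was 2.53% under TMM scaling, within the SD of the 2 atrazine libraries. It was 2.19% or 2.86% with 1 atrazine library left out. The untreated share, 0.735%, was 0.622% or 0.848% with 1 untreated library left out. With 2 libraries per group, such a shift is always smaller than their SD, so it says nothing about stability.

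Members called higher numbered 90, and 12 with no filter on low counts; with a library left out they were 2 to 118. Over all features, 186 were called higher and 132 lower. These counts were 580 and 355 with DESeq2, 287 and 205 with limma, which used log2(CPM + 1). Without the filter they were 12 and 1, and library-size scaling gave 209 lower. With a library left out, 3 to 673 features were higher and 0 to 582 lower. The 0 came from edgeR without atrazine replicate 2, where 646 features were lower at an unadjusted p below 0.05. What causes these shifts was not tested. All 128 members kept a positive fold change in each of these fits, which their choice fixes in advance. Members near another member numbered 32 at 10 numbers, 8 at 1, 10 at 2, 19 at 5 and 61 at 50. At 10 numbers they were 215 for a ratio of 1.5 and 2 for a ratio of 3, and 43 to 222 with a library left out. The median log2 ratio of neighbours, 0.08, was 0.14 within 1 number, 0.027 within 5 and -0.0019 within 10. Features more than 10 numbers away had a median of -0.018. The median within 2 numbers was 0.054 to 0.095 with a library left out, added after seeing the data. The members were kept as chosen from all 4 libraries for this. No paired analysis was possible because atrazine libraries are numbered 2 and 4, and untreated ones 1 and 5. A lone library in a fit is assumed to vary like the other pair. With 2 libraries per group and no gene names, the identity of the members and the spread between pools of animals are the main limits.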

Other observations

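Features outside the deposited CPM table carried few reads. Of 12118 such features, with at most 53 reads in any library, 342 had at least 10 reads in both atrazine libraries. In 13 of these the lower atrazine count was at least 2 times the higher untreated count. None of them reached 4 CPM, so they are not members.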
